A study of Mus musculus with 14 samples.

Results

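The genes described here are the SNARE and granule docking machinery of insulin secretion, a list of 44 mouse genes named by symbol. Of these, 43 were matched to a row among the 37310 gene identifiers of the count tables, and Vamp7 was not analysed here. The list holds 12 SNARE genes, 3 genes for SNARE regulators of the Munc18 and tomosyn type, 7 Rab GTPases of secretory granules, 9 Rab effectors, 8 priming and calcium-dependent factors, 2 granule phosphatases and 3 genes for SNARE disassembly. Membership followed gene names with no cutoff on measured values, but the list was set with earlier results of these data known.

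Insulin is stored in dense-core granules and released when the granule membrane fuses with the plasma membrane. Rab GTPases on the granule and their effectors bring it to the membrane, priming factors such as Munc13 and CAPS ready it, and the R-SNARE VAMP2 on the granule zips together with the Q-SNAREs syntaxin and SNAP-25 to fuse the membranes when calcium rises. NSF and its SNAP adaptors then take the spent SNARE complexes apart.

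RNA sequencing gave 14 libraries in 6 groups, each labelled C57BL/6. The insulin-secreting β-cells of wild-type mice were profiled in 3 neonatal libraries (P6, day 6 after birth) and 3 adult ones (P45, day 45). Whole islets of mice aged 8 weeks came from animals labelled TSC1 KO (n = 2) and control (n = 2), with the prefix RC in their titles. Whole islets of mice aged 4 weeks came from animals labelled Db (n = 2) and control (n = 2), with the prefix BKS, and neither prefix is explained by the labels. TSC1 restrains the growth kinase mTORC1, the design text describes the knockout as one of β-cells, and Db is the usual short name of the diabetic mouse line that lacks leptin receptor signalling. No label names the recombinase, the promoter driving it or the controls' genotype. Besides β-cells, whole islets contain other hormone cells, vessels, connective tissue and leukocytes. No label says that a group's libraries come from separate animals, and the p-values below therefore reflect only how far these libraries differ, a spread that could be technical. Fewer cells of a type and less RNA per cell cannot be told apart in such bulk samples.

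Total gene counts ranged from 3507929 to 17688772 per library, lowest in the 2 libraries labelled TSC1 KO. The 43 genes together took 0.822% to 0.934% of gene counts in the β-cell libraries and 0.0932% to 0.654% in the islet libraries. Insulin transcripts took 1.83% to 7.22% of gene counts in the β-cell libraries, 24.5% and 27.9% in RC control, 0.969% and 1.05% in TSC1 KO, 61.0% and 70.0% in BKS control and 45.5% and 48.3% in Db. Mitochondrially encoded transcripts took 39.8% and 46.8% in TSC1 KO against 9.05% and 12.4% in RC control. Tsc1 itself stood at 25.1 and 54.1 CPM (counts scaled to a common library total) in RC control and at 31.0 and 34.5 CPM in TSC1 KO, so the groups overlapped (log2 difference -0.28, edgeR's quasi-likelihood test, adjusted p = 0.638). The counting may include exons outside the deleted part and cells in which the gene is intact, so this neither checks nor contradicts the label.

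Promoter sequence from RefSeq (GRCm38.p6, a later build than that of the count tables, matched by symbol) was available for 34 of the 44 genes, as 41 windows of 300 bases that end 50 bases after the start. Each was searched on both strands for the left (TTCAGCACC) and right (GGACAGCG) part of RE1, the element bound by REST, a repressor known for silencing neuronal and endocrine secretory genes in other tissues. The left part was in 0.371% and the right part in 1.26% of all 32851 promoters of the same length. Both parts, the left before the right within a stretch of at most 30 bases, were found in 6 promoters (0.0183% of all). Of these, 2 belong to the list, Unc13a, which encodes the priming factor Munc13-1, and Ptprn2, which encodes the granule phosphatase IA-2β. The stretch was widened to 30 bases after a search with a short fixed gap had found no member. The search was thus shaped by the members, and the share over all promoters is no test of an excess among them. Both sites lie just after the start, at bases 7 to 31 of Unc13a (chr8:71671727-71671751, gene on the minus strand) and 6 to 22 of Ptprn2 (chr12:116485725-116485741, gene on the plus strand). Both genes were lower in the islets labelled TSC1 KO, while in Db Ptprn2 was higher and Unc13a was not called. Any part of these sites in those differences was not tested. The sites are shown 5′ to 3′ on the strand opposite to the gene, with the 2 RE1 parts in capitals.
Unc13a RE1 site: TTCAGCACCgggggcgcGGACAGCG
Ptprn2 RE1 site: TTCAGCACCGGACAGCG

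The other motifs searched were the cyclic AMP response element (TGACGTCA, 1.79% of all promoters), the E-box (CACGTG, 7.15%), the consensus NRF1 site (0.971%), the GC box (GGGCGG, 35.7%), the CCAAT box (CCAAT, 37.4%) and the TATA box (TATAAA, 13.6%). No motif here contains another in full. Among the 41 windows, 2 held a cyclic AMP response element (Napa and Stxbp3), 7 an E-box, 2 an NRF1 site, 22 a GC box, 13 a CCAAT box and 3 a TATA box. Shown 5′ to 3′ on the strand of the gene are the 250 bases before the start of Napa (chr7:16098330-16098579, plus strand), which encodes the SNAP adaptor α-SNAP and was called in both islet comparisons, with its 3 E-boxes in capitals, and of Sytl4 (chrX:133981813-133982062, minus strand), which encodes granuphilin and was lower in both islet comparisons, where none of the motifs was found. A match of letters describes the sequence and was not tested as a site of binding.
Napa promoter: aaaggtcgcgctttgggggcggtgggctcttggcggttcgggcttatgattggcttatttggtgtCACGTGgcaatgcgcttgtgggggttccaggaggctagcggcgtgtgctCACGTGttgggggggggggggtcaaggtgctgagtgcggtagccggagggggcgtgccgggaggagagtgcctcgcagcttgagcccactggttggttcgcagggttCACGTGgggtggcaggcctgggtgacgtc
Sytl4 promoter: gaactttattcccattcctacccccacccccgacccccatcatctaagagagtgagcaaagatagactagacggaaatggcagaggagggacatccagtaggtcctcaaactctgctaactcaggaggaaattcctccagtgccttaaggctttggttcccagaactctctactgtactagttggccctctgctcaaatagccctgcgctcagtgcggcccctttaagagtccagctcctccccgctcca

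Levels per kilobase of exon put the granule genes at the top of the list in wild-type β-cells. On the scale of CPM per kilobase, the mean levels in neonatal β-cells were 226 for Ptprn2, 161 for Ptprn, which encodes its partner IA-2, 157 for Cplx2, which encodes the clamp complexin 2, 152 for Sytl4, 112 for Rab27a and 105 for Rab3d. In adult β-cells the same scale gave 238 for Ptprn, 210 for Ptprn2, 171 for Sytl4, 130 for Rab3d, 105 for Cplx2 and 99.8 for Rab27a. Of the exocytic SNAREs, Snap25 stood at 37.1 and Vamp2 at 34.8 CPM per kilobase in neonatal β-cells, and Stx1a, the syntaxin of fast release, at 7.48. Cplx1, which encodes complexin 1, had 0 counts in all 6 β-cell libraries, which allows a level of up to 0.183 to 0.24 CPM (3 counts per library, counting error only). It was present in every islet library, at 0.485 to 29.9 CPM.

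The first comparison asks how the machinery differs between neonatal and mature β-cells. Adult β-cells held more Ptprn and more Cadps and less Cplx2 than neonatal ones, and no other gene of the 40 tested passed the threshold of an adjusted p under 0.05. These 3 are 7.5% of the members tested, beside 6.98% of all 14304 genes (484 or 3.38% higher and 515 or 3.6% lower, or 321 and 872 when scaled by library size only, which moved the median of all genes from -0.03 to -0.19). The median log2 difference (adult minus neonatal) was 0.16 over the members and -0.03 over all genes. At an unadjusted p under 0.05 there were 10 members (25% of those tested, beside 20.8% of all genes), and in 15 the 3 adult values lay wholly above or below the 3 neonatal ones (37.5%, beside 27.4% of all genes and 6.98% called). Rims1, Rab27b and Cplx1 had too few counts to be tested.

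Ptprn stood at 724, 677 and 648 CPM in the neonatal and 1071, 902 and 1057 CPM in the adult libraries. All adult values lay above all neonatal ones (log2 difference 0.56 ± 0.14 SE, edgeR's quasi-likelihood test, adjusted p = 0.0208). Its partner Ptprn2 stood at 1805, 1989 and 2046 CPM in the neonatal and 1928, 1695 and 1790 CPM in the adult libraries, with overlap (-0.11 ± 0.13, adjusted p = 0.709 by edgeR). Ptprn thus took 44.8%, 40.8% and 39.0% of the pair's level per kilobase in the neonatal libraries and 52.9%, 51.9% and 54.5% in the adult ones. Cadps, which encodes the calcium-dependent priming factor CAPS, stood at 396, 454 and 566 CPM in the neonatal and 693, 740 and 742 CPM in the adult libraries. The groups did not overlap (0.62 ± 0.16, adjusted p = 0.0236 by edgeR). Cplx2 stood at 911, 599 and 815 CPM in the neonatal and 483, 521 and 546 CPM in the adult libraries. Every adult value lay below every neonatal one (-0.59 ± 0.16, adjusted p = 0.0395 by edgeR). Each of these 3 calls rested on all adult libraries: without adult replicate 1, 2 or 3 the adjusted p was 0.13, 0.0521 and 0.112 for Ptprn, 0.078, 0.11 and 0.0988 for Cadps and 0.176, 0.151 and 0.106 for Cplx2. It was also lost without neonatal replicate 1 for Cadps (0.0633) and Cplx2 (0.12) and without neonatal replicate 3b for Ptprn (0.0684) and Cplx2 (0.107). Scaled by library size only, Ptprn (0.102) and Cadps (0.0975) were not called.

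None of the 11 SNARE genes tested passed the threshold with age, and 2 of them had an unadjusted p under 0.05 in edgeR, while Stx1a was called by DESeq2 (adjusted p = 0.028) and when scaled by library size only (0.0442). Stx1a stood at 21.2, 21.2 and 17.4 CPM in the neonatal and 7.16, 3.71 and 10.6 CPM in the adult libraries. The groups did not overlap, and the difference missed the threshold in edgeR (-1.48 ± 0.47, adjusted p = 0.0726). Snap25 stood at 228, 263 and 264 CPM in the neonatal and 325, 272 and 302 CPM in the adult libraries, each above every neonatal value (0.25 ± 0.16, adjusted p = 0.408 by edgeR). Snap23, the ubiquitous relative of Snap25, stood at 56.5, 77.4 and 56.0 CPM against 75.7, 93.5 and 64.9 CPM in adults, with overlap (0.30 ± 0.23, adjusted p = 0.527 by edgeR). Stx4a, a syntaxin of the plasma membrane, stood at 11.3, 13.3 and 11.1 CPM against 7.83, 20.8 and 18.2 CPM in adults, so adult replicate 1 lay below and the other 2 above all neonatal values. Vamp2 stood at 158, 119 and 121 CPM against 115, 150 and 144 CPM in adults, and Vamp8, a VAMP also used by other granule types, at 82.9, 62.6 and 74.6 CPM against 57.4, 80.0 and 83.2 CPM. Both overlapped, with log2 differences of 0.04 ± 0.19 and 0.00 ± 0.23.

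Among the Rab genes, Rab3d and Rab27a were the most abundant and neither was called with age. Rab3d stood at 518, 384 and 419 CPM in neonatal and 500, 576 and 556 CPM in adult β-cells (0.30 ± 0.15, adjusted p = 0.284 by edgeR), and Rab27a at 462, 380 and 459 CPM against 376, 378 and 407 CPM (-0.16 ± 0.15, adjusted p = 0.609 by edgeR). Both overlapped. Rab3a, the best studied Rab3 of synaptic vesicles, stood at 162, 108 and 151 CPM against 206, 196 and 182 CPM, without overlap (0.47 ± 0.19, adjusted p = 0.148 by edgeR). Rab3b stood at 26.8, 19.2 and 30.6 CPM against 18.1, 14.99 and 25.3 CPM, with overlap. Rab3c stood at 6.96, 0.135 and 1.34 CPM against 23.1, 15.99 and 7.68 CPM, and Rab27b at 0.390, 2.354 and 1.34 CPM against 0, 0.571 and 0.320 CPM. Rab3c was higher in each adult library than in any neonatal one and had a wide error (2.47 ± 0.98, adjusted p = 0.172 by edgeR). It was called with no filter on low counts (adjusted p = 0.00501), by DESeq2 (0.0464) and without neonatal replicate 1 (4.38, adjusted p = 0.0215), and its adjusted p over 12 alternatives ranged up to 0.413. Sytl2, which encodes a synaptotagmin-like Rab27 effector, had the other of the 2 largest differences that were not called, at 2.21, 2.15 and 1.95 CPM against 0, 0.357 and 0 CPM. Summed β-cell marker levels were 24400 to 33500 CPM in neonatal and 55100 to 90900 CPM in adult libraries, with 5 of 10 higher. Summed duct markers were 454 to 562 against 260 to 298 CPM, with 3 of 8 lower. The part of these markers in the members' differences was not tested.

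Exph5, Rph3a and Doc2b stood apart between the ages without passing the test. Exph5, which encodes the Rab27 effector exophilin 5, stood at 191, 215 and 216 CPM in neonatal and 310, 280 and 258 CPM in adult libraries. Rph3a, which encodes the Rab3 effector rabphilin, stood at 17.8, 1.55 and 9.25 CPM against 33.7, 28.3 and 23.7 CPM. Doc2b, a calcium sensor of fusion, stood at 15.2, 22.4 and 8.76 CPM against 4.55, 8.28 and 5.28 CPM. The first 2 were higher in every adult library and Doc2b lower, with adjusted p = 0.109, 0.17 and 0.15 by edgeR.

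**Figure D1:**
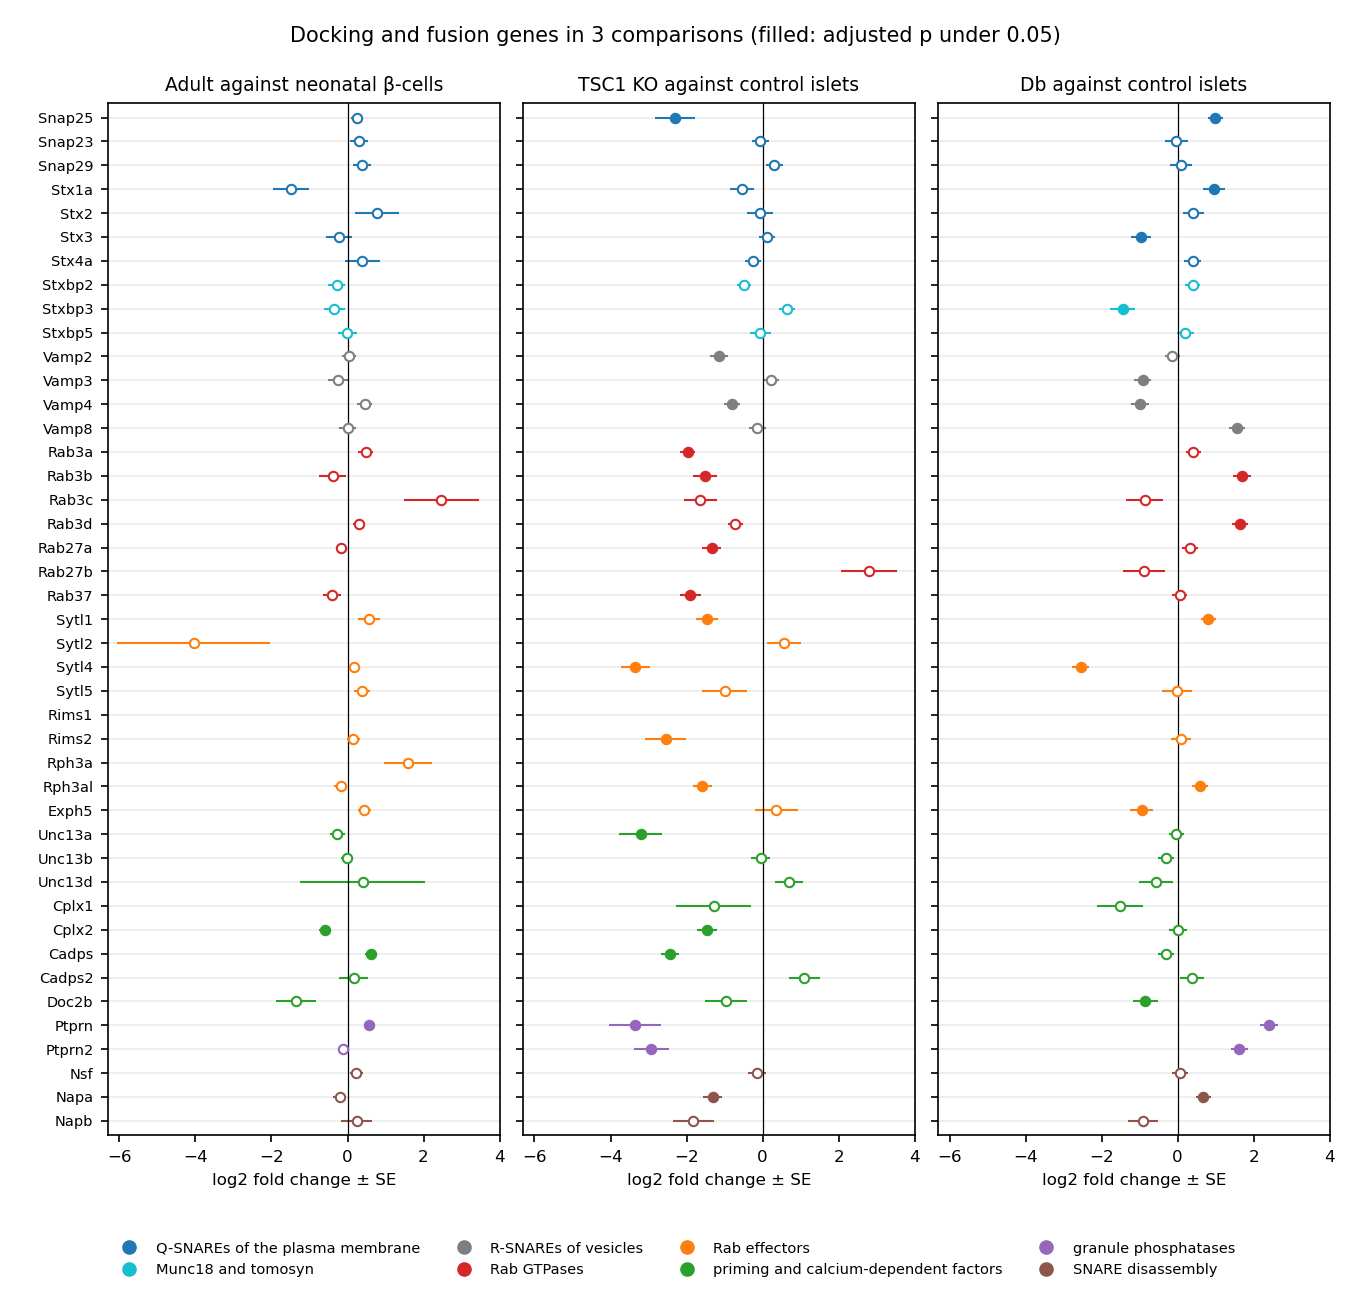
Log2 differences ± SE of the tested genes, by role (colour), for adult minus neonatal β-cells, TSC1 KO minus control islets and Db minus control islets. Filled points passed an adjusted p under 0.05 in edgeR: 3 with age, 17 in TSC1 KO, all below 0, and 17 in Db, 10 above and 7 below 0.

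The second comparison sets islets labelled TSC1 KO against RC control islets. Every member that passed the threshold was lower in TSC1 KO: 17 of 41 tested fell, by 0.81 to 3.35 on the log2 scale, and 0 rose. They include both granule phosphatases, 4 of 7 Rab genes, 4 of 7 effectors, 3 of 8 priming factors, 3 of 11 SNAREs and 1 of 3 genes of SNARE disassembly. This is 41.5% of the members beside 18.6% of all 14515 genes, of which 8.63% were higher and 10% lower (1252 and 1451 genes, or 756 and 1961 when scaled by library size only, which moved the median of all genes from 0.00 to -0.25). The median log2 difference was -0.96 over the members and 0.00 over all genes, and -1.20 against -0.25 when scaled by library size only. In 31 of the 41 the groups did not overlap (75.6%, beside 67.7% of all genes), and 24 had an unadjusted p under 0.05 (58.5%, beside 36.4% of all genes).

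Markers moved with this comparison. Summed β-cell markers were 235000 to 266000 CPM in control and 12900 to 13400 CPM in TSC1 KO, with 9 of 10 lower and a median log2 difference of -2.96. Summed markers of the other islet endocrine cells were 28300 to 34000 CPM against 3180 to 7890 CPM, with 7 of 10 tested lower and 1 higher. Duct markers summed to 303 to 992 against 2220 to 3010 CPM, with 2 of 8 higher and 0 lower. Endothelial markers summed to 2300 to 2540 against 3800 to 5070 CPM, with 3 of 8 higher and 0 lower. Mesenchymal markers summed to 313 to 699 against 869 to 4460 CPM, far apart between the knockout libraries, and 0 of 9 were called. Stomach markers summed to 10.9 to 19.7 against 190 to 320 CPM. All 4 of those tested were higher, while Gkn1, Gkn2 and Tff1 stood at 0 in all 4 libraries. Acinar, immune and neural markers overlapped. The part of these markers, of the mitochondrial share and of the lower depth in the members' differences was not tested. As a share of the counts outside insulin and mitochondrial genes, the 43 genes took 0.471% and 0.555% in control and 0.179% and 0.218% in TSC1 KO.

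Of the SNAREs, Snap25, Vamp2 and Vamp4 fell in islets labelled TSC1 KO. Snap25 stood at 133 and 79.2 CPM in control and at 31.0 and 11.04 CPM in TSC1 KO (-2.30 ± 0.53, adjusted p = 0.0433 by edgeR). The 2 knockout libraries differed among themselves and both lay below both controls. Vamp2 stood at 170 and 159 CPM against 84.4 and 64.6 CPM (-1.14 ± 0.24, adjusted p = 0.0282 by edgeR), and Vamp4, a VAMP best known from the trans-Golgi network and endosomes, at 40.6 and 45.8 CPM against 26.6 and 22.4 CPM (-0.81 ± 0.21, adjusted p = 0.046 by edgeR). Neither pair of groups overlapped. Snap23 stood at 24.8 and 24.6 CPM in control and 25.9 and 21.4 CPM in TSC1 KO (-0.06 ± 0.21, adjusted p = 0.868 by edgeR). Vamp8 stood at 76.5 and 58.4 CPM against 66.2 and 56.5 CPM (-0.13 ± 0.22, adjusted p = 0.703 by edgeR), and these groups overlapped, as did those of Snap23. Stx1a stood at 18.6 and 19.3 CPM against 16.3 and 9.36 CPM (-0.54 ± 0.32, adjusted p = 0.264 by edgeR), and Stx4a at 66.2 and 55.9 CPM against 47.5 and 55.5 CPM (-0.25 ± 0.21, adjusted p = 0.427 by edgeR). For both syntaxins the knockout values lay below the controls without passing the test. Within the SNAP-25 family, Snap25 took 63.6% and 47.7% of the level per kilobase in control and 24.8% and 11.5% in TSC1 KO.

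**Figure D2:**
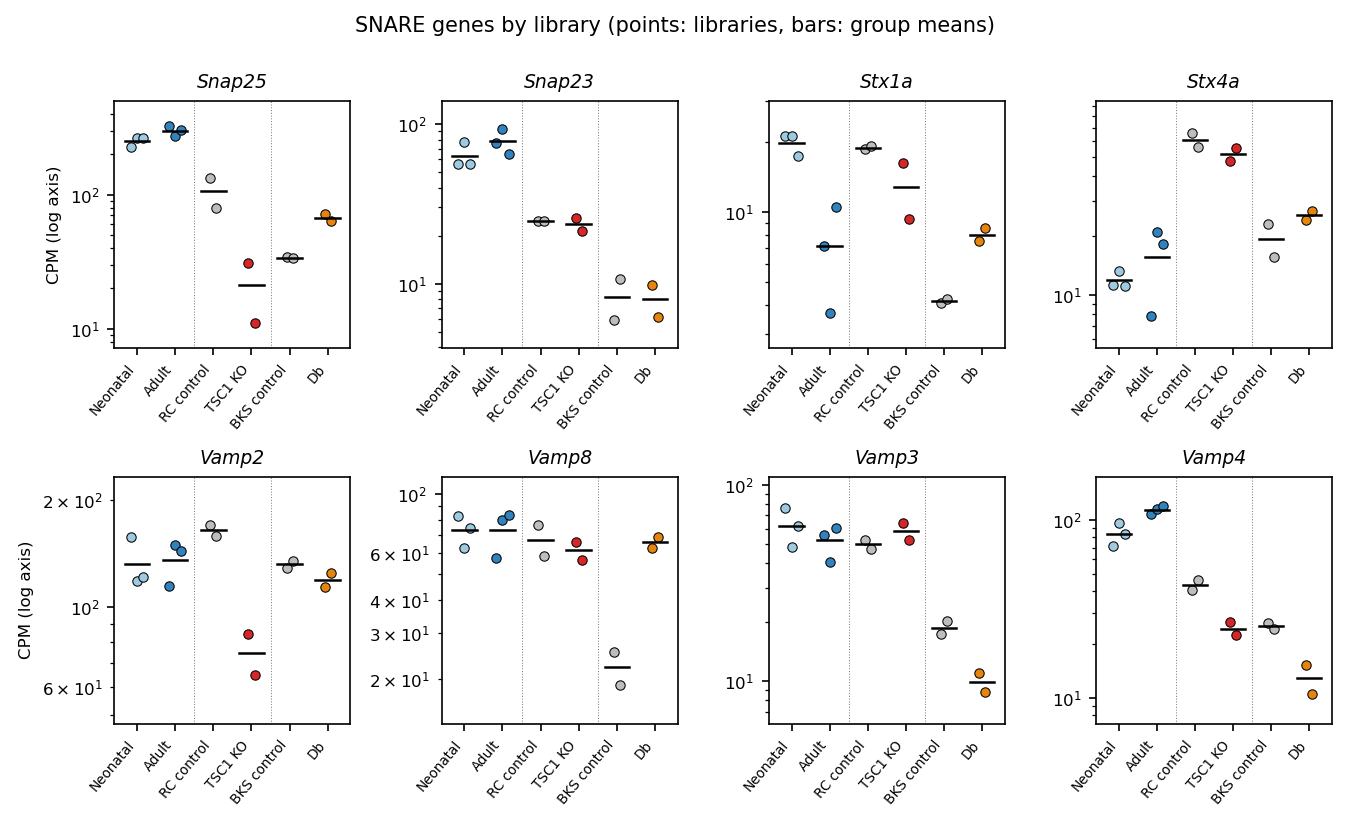
CPM of 8 SNARE genes in each library (points, log axis) with group means (bars). In the TSC1 KO libraries Snap25, Vamp2 and Vamp4 lie below the RC controls while Snap23 and Vamp8 overlap them, and in the Db libraries Vamp8, Snap25 and Stx1a lie above the BKS controls while Vamp3 and Vamp4 lie below.

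The Rab genes that fell, 4 of 7, were Rab3a, Rab3b, Rab27a and Rab37. Rab3a stood at 78.0 and 77.5 CPM in control and at 20.5 and 19.1 CPM in TSC1 KO, the closest replicates of these (-1.97 ± 0.19, adjusted p = 0.0105 by edgeR). Rab27a, the Rab of granule docking, stood at 80.3 and 112 CPM against 35.0 and 41.1 CPM (-1.34 ± 0.25, adjusted p = 0.0215 by edgeR). Rab37, another granule Rab, stood at 58.0 and 77.8 CPM against 21.7 and 14.4 CPM (-1.90 ± 0.28, adjusted p = 0.0151 by edgeR), and Rab3b at 32.5 and 20.8 CPM against 10.3 and 8.36 CPM (-1.50 ± 0.32, adjusted p = 0.0288 by edgeR). In all 4 the groups stood apart. Rab3c, at 31.1 and 18.4 CPM against 10.5 and 5.02 CPM, and Rab3d, at 100 and 103 CPM against 57.6 and 66.2 CPM, stood apart too and missed the threshold (-1.64 ± 0.43, adjusted p = 0.0503, and -0.72 ± 0.20, adjusted p = 0.0567, by edgeR). Rab3c was called under 5 of 11 alternatives (adjusted p from 0.0145 with no filter to 0.248), DESeq2 among them (0.0275), and Rab3d under 4 (from 0.0304 with library size only to 0.317). Rab27b, the close relative of Rab27a, went the other way, at 10.7 and 1.77 CPM in control and 41.0 and 45.8 CPM in TSC1 KO. Its difference of 2.80 ± 0.74 missed the threshold (adjusted p = 0.0602 by edgeR), and it was called without RC control replicate 1 (4.60, adjusted p = 0.000588) or 2 (2.01, adjusted p = 0.00652), by DESeq2 (adjusted p = 0.00106) and by limma-voom (adjusted p = 0.0267). Rab27b took 4.64% and 0.571% of the Rab27 pair's level per kilobase in control and 29.9% and 28.8% in TSC1 KO.

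Of the Rab effectors, Sytl4, Rph3al, Sytl1 and Rims2 fell. Sytl4, whose product granuphilin binds Rab27a and Rab3 on the granule and syntaxin 1a at the plasma membrane, stood at 125 and 240 CPM in control and 19.3 and 16.4 CPM in TSC1 KO (-3.34 ± 0.38, adjusted p = 0.0109 by edgeR). The control libraries differed by more than the knockout ones, and the groups stood far apart. Rph3al, which encodes Noc2, a Rab3 and Rab27 effector of endocrine granules, stood at 69.5 and 99.2 CPM against 30.5 and 25.4 CPM (-1.59 ± 0.25, adjusted p = 0.0167 by edgeR). Sytl1, another synaptotagmin-like gene, stood at 36.7 and 58.1 CPM against 16.6 and 18.1 CPM (-1.46 ± 0.28, adjusted p = 0.0245 by edgeR). Rims2, which encodes the scaffold RIM2 that links Rab3 to calcium channels, stood at 8.53 and 19.3 CPM against 2.10 and 2.68 CPM (-2.55 ± 0.54, adjusted p = 0.0288 by edgeR). No pair of these groups overlapped. Sytl2, Sytl5 and Exph5 were tested and not called, and Rims1 and Rph3a had too few counts.

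Of the priming factors, Cadps, Unc13a and Cplx2 fell. Cadps stood at 42.5 and 44.7 CPM in control and 8.86 and 7.02 CPM in TSC1 KO (-2.44 ± 0.23, adjusted p = 0.0105 by edgeR), while Cadps2 stood at 11.4 and 5.44 CPM against 19.8 and 16.1 CPM (1.10 ± 0.40, adjusted p = 0.106 by edgeR). Cadps thus took 70.4% and 83.9% of the pair's level per kilobase in control and 22.1% and 21.8% in TSC1 KO. Unc13a stood at 101 and 149 CPM against 20.3 and 6.02 CPM (-3.21 ± 0.57, adjusted p = 0.0247 by edgeR), while Unc13b, which encodes Munc13-2, stood at 39.3 and 60.9 CPM against 48.9 and 47.8 CPM (-0.05 ± 0.26, adjusted p = 0.906 by edgeR). Unc13a values stood apart between groups and those of Unc13b overlapped. Cplx2 stood at 193 and 257 CPM against 79.9 and 83.3 CPM, without overlap (-1.46 ± 0.26, adjusted p = 0.0197 by edgeR). Cplx1 stood at 29.9 and 5.002 CPM against 10.7 and 3.01 CPM, with overlap, and was not called (-1.28). Differences between paralogues were not tested.

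The granule phosphatases showed the largest falls beside Sytl4 and Unc13a. Ptprn stood at 371 and 496 CPM in control and 66.9 and 17.1 CPM in TSC1 KO (-3.35 ± 0.68, adjusted p = 0.0323 by edgeR), and Ptprn2 at 198 and 342 CPM against 47.5 and 23.1 CPM (-2.92 ± 0.46, adjusted p = 0.0176 by edgeR). Knockout replicate 2 was the lower in both. Napa stood at 250 and 235 CPM against 106 and 89.6 CPM (-1.31 ± 0.24, adjusted p = 0.0215 by edgeR), while Nsf, which encodes the ATPase that Napa's product recruits, stood at 40.9 and 53.6 CPM against 47.3 and 37.8 CPM, with overlap. Napb, the β-SNAP gene, stood at 35.7 and 14.4 CPM against 8.86 and 5.02 CPM and was not called (-1.82 ± 0.54, adjusted p = 0.0688 by edgeR), though it was under 3 of 11 alternatives (adjusted p from 0.00885 without RC control replicate 2 to 0.314).

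Among the members not called in this comparison, 9 had a log2 difference above 0, Rab27b and Cadps2 among them. Stxbp3, which encodes Munc18c, stood at 15.6 and 16.5 CPM in control and 25.6 and 24.8 CPM in TSC1 KO, above both controls (0.65, adjusted p = 0.0817 by edgeR). Stxbp2, which encodes Munc18b, stood at 63.8 and 63.6 CPM against 45.4 and 45.8 CPM, below both controls (-0.48). Snap29, a SNARE of several membrane steps, stood at 18.6 and 24.3 CPM against 27.0 and 26.1 CPM, and Vamp3, a VAMP of recycling endosomes, at 52.8 and 47.2 CPM against 64.1 and 52.5 CPM. Only Vamp3 overlapped among these 4.

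All 17 calls in this comparison needed both knockout libraries, since edgeR called 0 of them (and 0 of all genes) without either one: the lowest adjusted p was 0.0892 without knockout replicate 1 and 0.148 without replicate 2, with 21 and 18 members at an unadjusted p under 0.05. Their direction was the same in both. Leaving out a control library also cost the calls of Ptprn (adjusted p = 0.0898 without RC control replicate 1 and 0.135 without 2), Snap25 (0.0819 and 0.0572), Unc13a (0.0548 without 2) and Vamp4 (0.0731 without 2). With no filter on low counts Unc13a (0.0541), Ptprn (0.0633) and Snap25 (0.103) missed the threshold, as did Vamp4 by DESeq2 (0.127) and Rims2 (0.087) and Vamp4 (0.0508) by limma-voom.

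**Figure D3:**
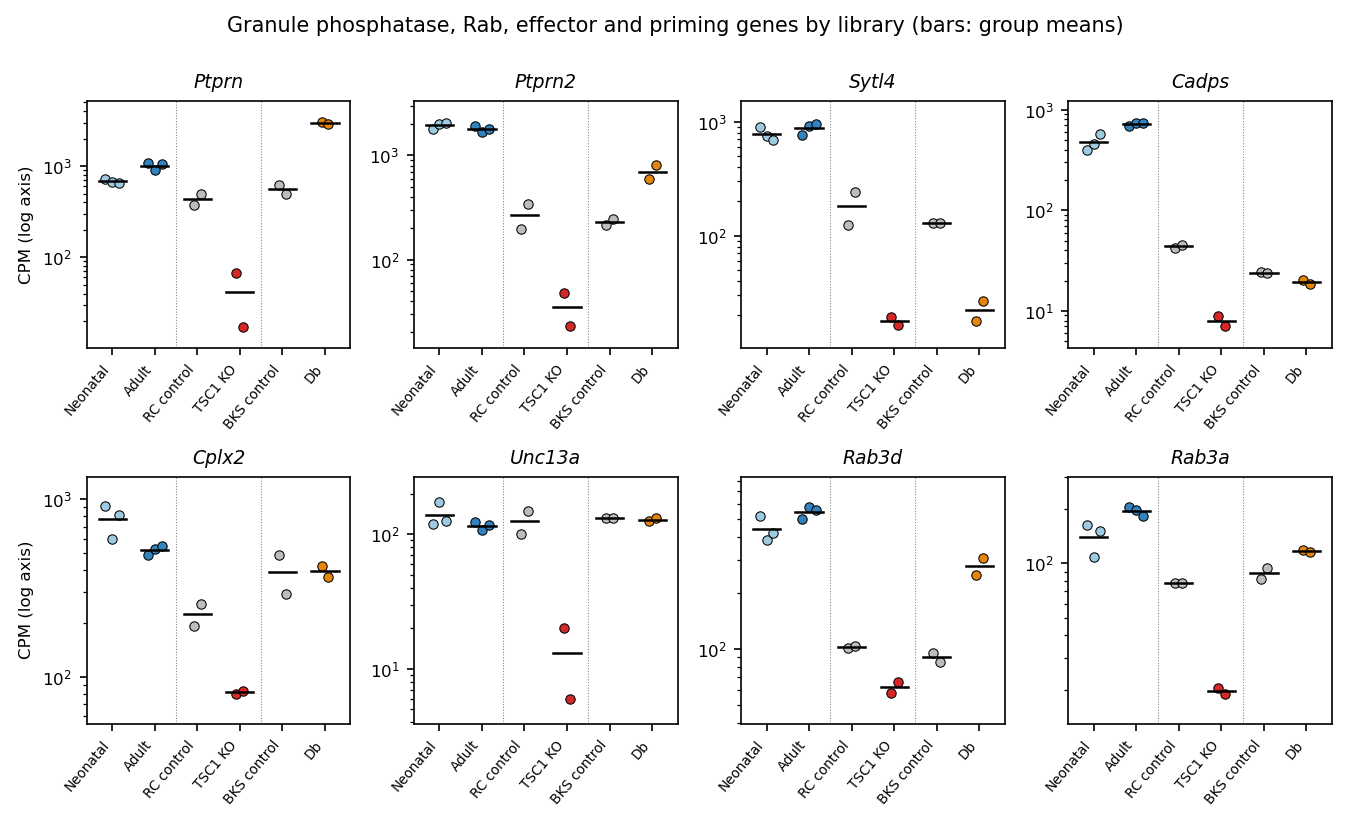
CPM of 8 granule phosphatase, Rab, effector and priming genes in each library (points, log axis) with group means (bars). All 8 lie lower in the TSC1 KO libraries than in RC control, whereas in the Db libraries Ptprn, Ptprn2, Rab3d and Rab3a lie above BKS control, Sytl4 and Cadps below it, and Unc13a and Cplx2 close to it.

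The third comparison sets islets labelled Db against BKS control islets. The granule phosphatases, Rab3b and Rab3d, and Snap25, Stx1a and Vamp8 rose, while Sytl4, Exph5, Stxbp3, Doc2b, Vamp3, Vamp4 and Stx3 fell. Of 40 members tested, 10 rose and 7 fell, which is 42.5% beside 48.2% of all 14369 genes, of which 24.3% were higher and 23.9% lower (3488 and 3431 genes). Scaled by library size only, which moved the median of all genes from -0.03 to 0.29, the split was 3983 higher and 1562 lower over all genes and 10 higher and 3 lower over the members. The share of members called is thus close to that of all genes. The median log2 difference was 0.06 over the members and -0.03 over all genes, and in 32 of the 40 the groups did not overlap (80%, beside 74.7% of all genes). At an unadjusted p under 0.05 there were 20 members (50%, beside 54.7% of all genes). As a share of counts outside insulin and mitochondrial genes, the 43 genes took 0.68% and 0.588% in control and 1.16% and 1.2% in Db. This share leans on Ptprn, the most abundant member in both groups, with a mean of 559 CPM in control and 2974 CPM in Db. Insulin took a smaller share of the Db libraries. The summed β-cell markers were 600000 to 920000 CPM in control and 428000 to 495000 CPM in Db, with 7 of 10 lower and 1 higher. Summed acinar markers were 23.4 to 28.7 CPM in control and 138 to 303 CPM in Db, with 7 of 10 tested higher and 1 lower. Mesenchymal markers summed to 183 to 285 against 519 to 548 CPM, with 6 of 8 tested higher. Other islet endocrine markers summed to 4040 to 7870 against 9530 to 11000 CPM, with 3 of 10 tested higher and 1 lower. Neural markers summed to 56.5 to 94.2 against 148 to 156 CPM, with 3 of 7 tested higher and 1 lower. Endothelial markers summed to 818 to 865 against 614 to 616 CPM, with 4 of 8 tested lower and 2 higher. Duct markers were mixed. They summed to 296 to 297 against 713 to 748 CPM, yet 2 of 7 tested were higher and 3 lower (median log2 difference -0.26). The part of all these markers in the members' differences was not tested.

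The largest rise was that of Ptprn, at 623 and 495 CPM in control and 3073 and 2875 CPM in Db (2.41 ± 0.24, adjusted p = 4.58e-09 by edgeR). Both Db libraries lay far above both controls. Ptprn2 stood at 213 and 245 CPM against 588 and 812 CPM (1.61 ± 0.22, adjusted p = 1.48e-06 by edgeR), also without overlap. Ptprn took 85.6% and 80.4% of the pair's level per kilobase in control and 91.4% and 87.8% in Db.

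Of the Rab genes, Rab3d stood at 94.9 and 84.8 CPM in control and 249 and 308 CPM in Db (1.63 ± 0.21, adjusted p = 4.48e-07 by edgeR), and Rab3b at 8.57 and 7.19 CPM against 25.1 and 26.1 CPM (1.69 ± 0.24, adjusted p = 1.56e-06 by edgeR). Both stood clear of the controls. Rab3a, at 82.5 and 93.8 CPM against 118 and 116 CPM, stood apart too and was not called (0.40 ± 0.20, adjusted p = 0.0907 by edgeR), though it was with no filter (0.0439), by DESeq2 (0.0448) and without BKS control replicate 2 (0.0281). Rab3d thus took 36.2% and 31.4% of the Rab3 level per kilobase in control and 49.7% and 55.3% in Db, and Rab3a 59.4% and 65.4% against 44.2% and 39.1%. Rab27a stood at 65.7 and 52.6 CPM against 75.7 and 72.2 CPM (0.32 ± 0.20, adjusted p = 0.185 by edgeR), Rab27b at 0.964 and 1.16 CPM against 0.498 and 0.630 CPM and Rab3c at 3.53 and 1.03 CPM against 1.66 and 0.921 CPM. Neither Rab27b nor Rab3c was called, and Rab3c overlapped between the groups.

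The effectors of these Rabs moved in opposite directions. Sytl4 stood at 130 and 129 CPM in control and 17.8 and 26.5 CPM in Db (-2.55 ± 0.22, adjusted p = 3.8e-10 by edgeR), the lowest adjusted p among the members. Sytl1 stood at 62.3 and 68.0 CPM against 124 and 105 CPM (0.81 ± 0.20, adjusted p = 0.00152 by edgeR). In both genes the groups stood apart, and Sytl4 took 49.5% and 47.4% of the synaptotagmin-like level per kilobase in control and 6.47% and 10.8% in Db, while Sytl1 took 48.3% and 50.9% against 91.3% and 87.5%. Rph3al stood at 44.8 and 64.6 CPM against 90.2 and 73.3 CPM (0.58 ± 0.21, adjusted p = 0.0244 by edgeR). Exph5 stood at 7.60 and 5.26 CPM against 3.43 and 3.30 CPM (-0.94 ± 0.31, adjusted p = 0.0125 by edgeR). Neither of these overlapped between the groups.

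Among the 11 SNAREs tested, 3 rose and 3 fell in islets labelled Db, where 24.3% of all genes were higher and 23.9% lower. Vamp8 stood at 25.4 and 19.0 CPM in control and 62.6 and 69.2 CPM in Db (1.57 ± 0.21, adjusted p = 1.03e-06 by edgeR). Snap25 stood at 34.4 and 33.4 CPM against 71.2 and 63.2 CPM (0.99 ± 0.20, adjusted p = 0.000211 by edgeR) and Stx1a at 4.07 and 4.24 CPM against 7.52 and 8.53 CPM (0.95 ± 0.29, adjusted p = 0.00834 by edgeR). All 3 stood above the controls without overlap. Vamp3 stood at 17.4 and 20.3 CPM against 11 and 8.823 CPM (-0.92 ± 0.23, adjusted p = 0.00198 by edgeR), Vamp4 at 26.5 and 24.4 CPM against 15.3 and 10.5 CPM (-0.99 ± 0.23, adjusted p = 0.000887 by edgeR) and Stx3, a syntaxin of the plasma membrane and of granules, at 9.64 and 12.7 CPM against 6.52 and 4.95 CPM (-0.96 ± 0.27, adjusted p = 0.00466 by edgeR). These 3 stood below the controls without overlap. Vamp2 stood at 129 and 135 CPM against 114 and 125 CPM (-0.14 ± 0.20, adjusted p = 0.566 by edgeR), Snap23 at 5.89 and 10.7 CPM against 9.84 and 6.16 CPM (-0.04 ± 0.30, adjusted p = 0.924 by edgeR) and Stx4a at 22.8 and 15.7 CPM against 24.1 and 26.7 CPM (0.40 ± 0.22, adjusted p = 0.143 by edgeR). None of these 3 passed the test, and only Snap23 overlapped between the groups. Vamp8 took 19.4% and 14.7% of the summed level per kilobase of Vamp2, Vamp3, Vamp4 and Vamp8 in control and 42.3% and 44% in Db.

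Stxbp3, whose product Munc18c is the partner of syntaxin 4, stood at 5.68 and 7.57 CPM in control and 2.60 and 2.23 CPM in Db (-1.45 ± 0.32, adjusted p = 0.000503 by edgeR), whereas Stxbp2 stood at 48.3 and 42.4 CPM against 57.0 and 62.1 CPM and was not called. Stxbp3 lay lower in both Db libraries than in either control. Doc2b stood at 8.57 and 3.85 CPM against 3.48 and 3.49 CPM (-0.85 ± 0.33, adjusted p = 0.0369 by edgeR), so the call rested on BKS control replicate 1, without which the difference was -0.11 (adjusted p = 0.841). Napa stood at 77.9 and 81.0 CPM against 116 and 137 CPM, without overlap (0.67 ± 0.20, adjusted p = 0.0067 by edgeR). The priming factors Unc13a, at 132 and 132 CPM against 125 and 132 CPM (-0.04 ± 0.20), Cplx2, at 488 and 291 CPM against 422 and 365 CPM (0.01 ± 0.23), and Cadps, at 24.1 and 23.8 CPM against 20.1 and 18.4 CPM (-0.31 ± 0.21), were not called. The largest differences that were not called were those of Cplx1, at 3.75 and 0.770 CPM against 1.16 and 0.485 CPM, and Napb, at 3.53 and 3.08 CPM against 2.38 and 1.16 CPM. Cplx1 (adjusted p = 0.0515 by edgeR) was called under 6 of 11 alternatives, with adjusted p from 3.52e-05 without BKS control replicate 2 to 0.934 without BKS control replicate 1, where the difference was 0.10. Napb (adjusted p = 0.0534 by edgeR) was called under 4 of 11, with adjusted p from 0.0233 without Db replicate 1 to 0.491.

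Of the 17 calls, 9 held under every setting tried: Ptprn, Ptprn2, Rab3b, Rab3d, Snap25, Stxbp3, Sytl1, Sytl4 and Vamp8. Without Db replicate 2 the calls of Vamp4 (adjusted p = 0.059), Vamp3 (0.057), Stx3 (0.0982), Napa (0.125), Stx1a (0.0738), Exph5 (0.0867) and Doc2b (0.117) were lost. Without Db replicate 1 those of Exph5 (0.0557), Rph3al (0.218) and Doc2b (0.0999) were lost, without BKS control replicate 1 those of Exph5 (0.179) and Rph3al (0.148), and without BKS control replicate 2 that of Stx3 (0.0517). Scaled by library size only, Vamp4 (0.0812), Vamp3 (0.138), Stx3 (0.137), Exph5 (0.153) and Doc2b (0.205) missed the threshold. So did Exph5 (0.12) and Doc2b (0.22) by DESeq2, and Doc2b by limma-voom (0.0634) and with no filter on low counts (0.0518).

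**Figure D4:**
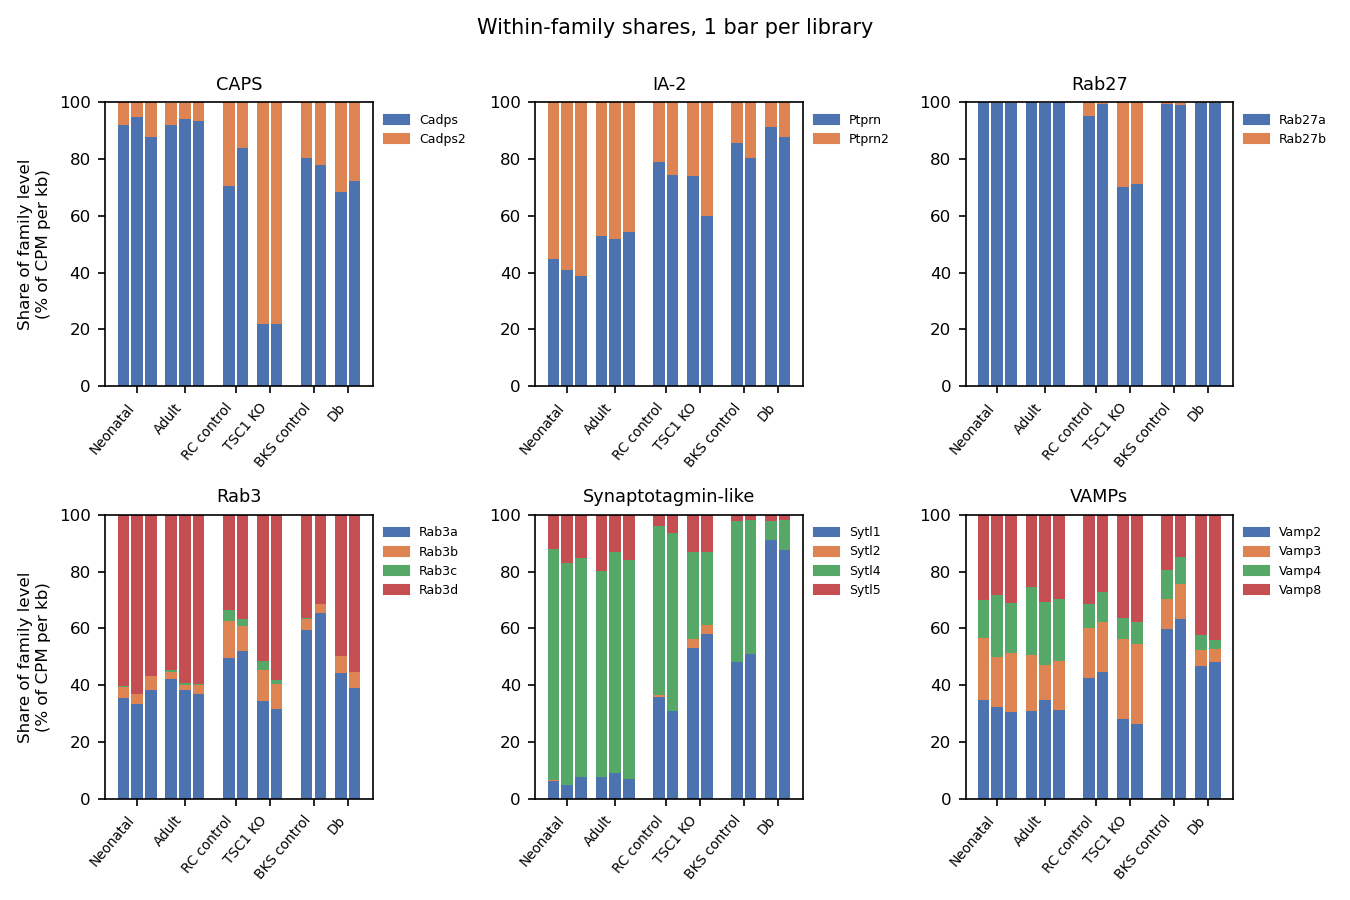
Share of each gene in the summed level (CPM per kilobase) of its family's listed members, 1 stacked bar per library. Cadps and Rab27a take less of their pairs in TSC1 KO than in RC control, and in Db Sytl1 and Vamp8 take more, and Sytl4 less, of their families than in BKS control.

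The effects of TSC1 KO and Db were set against each other in a joint fit of the 8 islet libraries, whose 2 tables have separate controls. The difference passed the threshold for 22 of 41 members, beside 31.8% of all 15702 genes. In 19 the TSC1 KO effect lay below the Db effect, beside 18.6% of all genes in that direction, and in 3 above it, beside 13.2%. Ptprn differed most (-5.85 ± 0.73, adjusted p = 0.000335 by edgeR), then Ptprn2 (-4.62 ± 0.52, adjusted p = 0.000128), Snap25 (-3.37 ± 0.57, adjusted p = 0.00274) and Rab3b (-3.28 ± 0.38, adjusted p = 9.52e-05), all of which fell in TSC1 KO and rose in Db. Unc13a (-3.25 ± 0.57, adjusted p = 0.00282 by edgeR) and Cadps (-2.22 ± 0.31, adjusted p = 0.000296 by edgeR) fell in TSC1 KO and were not called in Db. The 3 above were Rab27b (3.60 ± 1.10, adjusted p = 0.0395 by edgeR), Stxbp3 (2.01 ± 0.38, adjusted p = 0.00202) and Vamp3 (1.06 ± 0.31, adjusted p = 0.0197). Sytl4 and Vamp4 fell in both comparisons, and for them the difference was -0.88 ± 0.44 (adjusted p = 0.144 by edgeR) and 0.08 ± 0.33 (adjusted p = 0.869 by edgeR). The 2 tables differ in age and in whatever the prefixes stand for as well as in genotype, and these cannot be told apart.

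**Figure D5:**
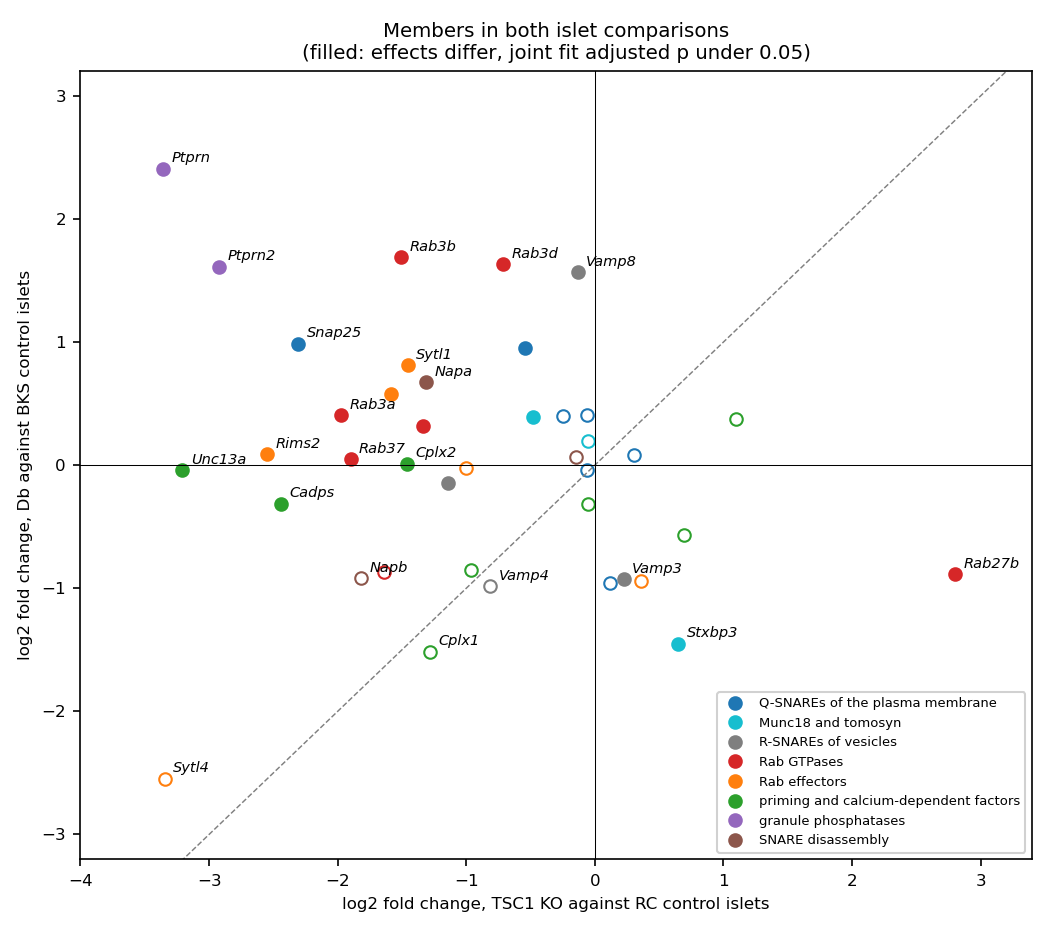
Log2 difference of each member in TSC1 KO islets (x axis) and in Db islets (y axis), with the line of equal effects dashed. Filled points are the 22 members whose effects differ in the joint fit; Ptprn and Ptprn2 lie at the upper left and Sytl4 at the lower left, near the line.

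Over the 3 comparisons, 18 of the 43 genes were called in none, 14 in 1, 10 in 2 and Ptprn alone in all 3. Genes called in none include Snap23, Snap29, Stx2 and Stx4a among the SNAREs, Stxbp2 and the tomosyn gene Stxbp5 among their regulators, Rab3c and Rab27b, the effectors Sytl2, Sytl5, Rims1 and Rph3a, the priming factors Unc13b, Unc13d, Cplx1 and Cadps2, and Nsf and Napb.

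A wider list of 62 other docking, priming and vesicle genes was read from the same fits. With age 6 of 55 tested rose (10.9%, beside 3.38% of all genes) and 0 fell (3.6% of all genes). The lowest adjusted p was that of Myo5a, the motor that carries granules on actin (96.2 ± 6.77 SD CPM in neonatal against 279 ± 43.7 SD CPM in adult, n = 3 each, 1.53 ± 0.18, adjusted p = 7.14e-05 by edgeR). Snap91, Rims3 and the vesicle membrane gene Syp followed (adjusted p = 0.024, 0.0248 and 0.0264 by edgeR). Each of these 3 calls was lost without adult replicate 1, 2 or 3. Over 12 alternatives Snap91 was lost in 4, Rims3 in 6 and Syp in 5, and Rims3 and Syp were lost when scaled by library size only. The call of Myo5a was lost in 0 of the 12. In TSC1 KO 15 of 57 fell (26.3%, beside 10% of all genes) and 5 rose (8.77%, beside 8.63%). Among those that fell were Syp (-3.09 ± 0.39, adjusted p = 0.0118 by edgeR), Rims3 (-3.61 ± 0.47, adjusted p = 0.0132), Ica1 and Madd, and among those that rose were Myrip (2.03 ± 0.25, adjusted p = 0.0117 by edgeR) and Mlph (2.33 ± 0.30, adjusted p = 0.0118), both of which encode linkers between Rab27 and myosin, and Rab3il1 and Exoc6. In Db 16 of 56 rose and 14 fell (53.6% called, beside 48.2% of all genes). The lowest adjusted p among the rises were those of Snap47, Rimbp2, Rab3gap1 and Sv2c (log2 differences 1.39, 1.13, 1.06 and 2.36) and among the falls those of Syn3, Mlph, Snapin and Rims3 (-2.65, -1.77, -1.30 and -0.93). The list's median log2 difference was 0.28 with age, -0.44 in TSC1 KO and -0.04 in Db.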

How the data were processed

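The authors deposited raw gene counts, whole numbers with no normalization, in 3 tables. Per the submitters' processing notes, reads were handled with GSNAP, cutadapt (version 1.13), HTSeq (0.7.1) and DESeq2 (1.16.0), against the mouse build mm9, also called NCBIM37. Libraries were made from total RNA with a kit that marks strand, per the labels' protocols, and no source used here gives the strand setting of the counting. Of the members, 6 overlap exons of an opposite-strand gene over 1.3% to 9% of their length (Snap29, Stx4a, Rab3a, Rab3b, Unc13a, Doc2b), so reads of the partner may be included. Between paralogues the longest identical run of transcript was 33 bases in 38 pairs.

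Groups came from the sample titles. Neonatal columns are headed 1, 3 and 3, called 1, 3a and 3b. Rows that name no gene were left out. In the β-cell and Db tables gene rows held 24.5% to 44.3% of reads. Each table was fitted with edgeR 4.0.16 in R 4.3.3 (filterByExpr with a minimum count of 10 and total of 15, TMM, robust quasi-likelihood F test, two-sided, Benjamini-Hochberg over all genes tested, threshold 0.05). Errors of log2 differences are standard errors worked out from each difference and the F statistic of its test. They are thus no measure of spread separate from that test. CPM are counts relative to the TMM-scaled library total, and levels per kilobase divide by the merged exon length in GENCODE M21. Family shares cover only the listed members with a row, so Vamp7 and relatives outside the list, such as Vamp1 and Sytl3, are left out. Replicates differed by a chi-square of 10.0 to 81.3 per degree of freedom, so none looked like a library deposited again. Intervals and floors cover counting error only. The scripts were tested on simulated counts.

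The members, gene lists, markers, motifs and the rule for named genes were chosen with earlier results of these data known. The rule names with every library's value the central SNAREs and Rabs, all members past the threshold, the 2 largest uncalled differences, and up to 4 genes per list and direction. Others named were chosen after their values were seen. Alternatives were other scalings, no filter, DESeq2 1.42.0, limma-voom (limma 3.58.1), a replicate block and leaving out each library.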

Additional observations from a re-analysis of the deposited data

Results flagged for a closer look

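For 22 of 41 members tested the change in islets labelled TSC1 KO and the change in islets labelled Db differed in a direct test of the difference, edgeR's interaction test adjusted over all genes (adjusted p between 9.49e-05 and 0.0395). Of all 15702 genes tested 31.8% differed, 18.6% with the TSC1 KO change below the Db change and 13.2% with it above. The TSC1 KO log2 change minus the Db log2 change was, in ascending order, Ptprn -5.85, Ptprn2 -4.62, Snap25 -3.37, Rab3b -3.28, Unc13a -3.25, Rims2 -2.74, Rab3a -2.46, Rab3d -2.44, Sytl1 -2.36, Rph3al -2.25, Cadps -2.22, Napa -2.07, Rab37 -2.03, Vamp8 -1.79, Rab27a -1.75, Stx1a -1.58, Cplx2 -1.57, Vamp2 -1.08 and Stxbp2 -0.96. It was above 0 for Rab27b at 3.60, Stxbp3 at 2.01 and Vamp3 at 1.06. Of the 22, 17 held under every setting tried, and Rab27b, Vamp3, Stxbp2, Stx1a and Vamp2 were lost under at least 1. The 4 groups differ in age, prefix and share of insulin counts, so the part of genotype in these differences cannot be told apart.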

How the results depend on the processing

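With 2 or 3 libraries per group, few residual degrees of freedom and knockout libraries of low depth, a difference that was not called may be one that these samples could not show. With age, all genes called numbered 999, 1707 by DESeq2 and 405 to 1380 when 1 library was left out. Members called numbered 3, 5 with no filter on low counts, 5 by DESeq2 and 0 to 5 when 1 library was left out, with 0 called by edgeR without adult replicate 1, 2 or 3 (4, 9 and 8 at an unadjusted p under 0.05) and 1 without neonatal replicate 3b. In TSC1 KO, leaving out 1 library gave 0 to 4015 genes and 0 to 19 members, against 2703 and 17. In Db it gave 4419 to 6666 genes and 10 to 20 members, against 6919 and 17, lowest without Db replicate 2. Members whose effects differ between TSC1 KO and Db numbered 17 to 25 when 1 library was left out and 22 to 24 under the other settings.

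Islet libraries of the same replicate number showed no shared deviation over genes (correlation -0.055 for TSC1 KO and -0.035 for Db). This does not settle whether the libraries are paired. With the number as a replicate block, TSC1 KO gave 1648 genes and 16 members and Db 6614 genes and 18 members. The block lost Unc13a (adjusted p = 0.0561), Vamp2 (0.0519) and Vamp4 (0.0875) in TSC1 KO and Doc2b (0.0581) in Db, and gained Rab3c (0.0303) and Napb (0.0303) in TSC1 KO and Cplx1 (0.0299) and Napb (0.0496) in Db. No paired analysis was possible because 2 neonatal columns share the number 3 for the comparison of ages.

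Differences that were not called changed sign under some settings, and the cause was not tested. With age these were Vamp8 (-0.0064 with RLE, -0.16 with library size only, -0.0098 by DESeq2, -0.0177 by limma-voom, -0.0968 to 0.1512 with 1 library left out) and Vamp2 (-0.13 with library size only, -0.036 to 0.1814 with 1 left out). In TSC1 KO, leaving out 1 library gave -0.3174 to 0.0759 for Vamp8 (above 0 without RC control replicate 1) and -0.2139 to 0.0647 for Snap23 (above 0 without knockout replicate 2). In Db they were Snap23 (0.30 with library size only, 0.0559 with no filter, 0.0325 by DESeq2, -0.3968 to 0.466 with 1 left out) and Vamp2 (0.17 with library size only). Leaving out 1 library gave -1.4339 to 0.3387 for Rab3c and -2.2074 to 0.0968 for Cplx1 in Db, above 0 without BKS control replicate 1.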

Other observations

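The SNAREs and Munc18-type proteins of other membrane steps (28 genes, mostly of the ER, Golgi and endosomes) were read from the same fits. With age 0 of 25 tested were called by edgeR (6.98% of all genes), with 6 at an unadjusted p under 0.05. In islets labelled TSC1 KO 4 of 26 fell (15.4%, beside 10% of all genes) and 0 rose (8.63% of all genes). The 4 were Scfd1 (25.0 ± 0.104 SD CPM against 65.8 ± 4.77 in control, n = 2 each), which encodes the Sec1-type partner of Golgi syntaxin, Sec22b, Stx5a and Bet1. In islets labelled Db 6 of 25 rose and 4 fell (40% called, beside 48.2% of all genes), with Bet1l, Sec22c, Scfd2 and Use1 among the rises (1.52, 1.28, 1.08 and 0.81 on the log2 scale) and Scfd1, Stx7, Vti1a and Sec22a the falls (-1.12, -0.97, -0.92 and -0.91). The median log2 difference was 0.21 with age, -0.27 in TSC1 KO and 0.16 in Db.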
